A study of Mus musculus with 16 samples.

Results

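Mature oligodendrocyte nuclei were selected from single-nucleus RNA-seq of the mouse hippocampus by the transcripts they held. A nucleus was taken as a mature oligodendrocyte where at least 4 of 8 genes (*Mog*, *Mag*, *Prr5l*, *St18*, *Ermn*, *Sec14l5*, *Plekhh1* and *Opalin*) were detected and *Pdgfra*, *Csf1r*, *Gad2* and *Gpr17* were not. Nuclei first had to hold 200 to 4000 genes and at most 5% mitochondrial unique molecular identifiers (UMIs, each marking 1 captured RNA molecule). Of 155084 barcodes, 118205 passed these limits, and 18895 of them were mature oligodendrocytes, with 866 to 1494 in each of 16 libraries. The measured counts of these 12 genes chose the nuclei, so the levels of these genes are not reported as results.

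The libraries came from male mice of 2 genotypes given vehicle or DMXAA, an agonist of mouse STING, the adaptor protein through which cytosolic DNA sensing induces type I interferon. There were 4 libraries each of C57BL/6 wild-type (WT) mice with vehicle, WT mice with DMXAA, *Ifnar1*-/- mice with vehicle and *Ifnar1*-/- mice with DMXAA. *Ifnar1* encodes one chain of the type I interferon receptor, and these mice carry the deletion in every cell. The ages in the labels are 2 months and 23 days for WT and 3 months and 3 days for *Ifnar1*-/- mice, and the study's methods describe the strains as purchased and not as littermates. Genotype, age and cohort therefore cannot be told apart, whereas each DMXAA group has vehicle mice of its own genotype and age. Mice received repeated intraperitoneal injections, and nuclei were sorted by DAPI from the hippocampi of the right hemispheres collected the day after the last injection.

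Mature oligodendrocytes wrap axons in myelin, a membrane stack made of proteins such as MBP together with galactolipids and cholesterol. When type I interferon binds its receptor, JAK kinases phosphorylate STAT proteins, which join IRF9 and bind interferon-stimulated response elements in the promoters of antiviral and antigen presentation genes. Oligodendrocytes in demyelinating and neurodegenerative disease have been described with complement, MHC class I and interferon-induced transcripts.

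In these data, 2 genes passed the test between WT DMXAA and WT vehicle oligodendrocytes among 13196 (0.0152%), both of them higher with DMXAA and among 56 tested interferon genes. One was *Ddx60*, which encodes an antiviral helicase and had 7 counts with vehicle and 176 with DMXAA. *Ddx60* had so few counts in the other groups that it reached the count limit of the test only through the WT DMXAA libraries, and it did not pass without nuclei holding at least 3 neuron markers, in a fit of the WT libraries alone or without any 1 WT vehicle library. The summed RNA of the interferon lists was 2428, 1775, 1405 and 1800 CPM in WT DMXAA libraries, and 1369 to 1443 CPM with vehicle. Replicate 3 lay within the vehicle range in CPM, before the scaling between libraries (TMM) that the tests used. A further set, including the interferon-induced gene *Ifi27* and the MHC class I genes *H2-D1* and *H2-K1*, passed when the WT DMXAA library that stood apart from its group was left out. That library also stood apart, on the low side, in *Ifi27* and in summed MHC class I RNA, so leaving it out favours these calls. No gene passed in *Ifnar1*-/- oligodendrocytes. Genes of myelin proteins, myelin lipids and oligodendrocyte transcription factors had no member that passed in either genotype, where few genes of any kind did.

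WT DMXAA replicate 3 stood apart from its group. In it, 49.4% of the oligodendrocyte nuclei held at least 3 of 5 neuron markers, against 5.40% to 20.5% in the other 15 libraries. Its summed neuron marker RNA was 18838 CPM (UMI counts of a gene scaled to an equal total of oligodendrocyte UMIs in every library), against 4627 to 6983 in the other WT libraries, and its summed RNA of a list of nuclear-retained transcripts was 50022 CPM, against 93072 to 153227. In both it lay nearer to the *Ifnar1*-/- libraries, which had 7097 to 13906 and 25776 to 48295 CPM. On the first principal component of the oligodendrocyte sums, which took 52.8% of the variance, it lay at 55.7, beyond the other WT libraries at -57.4 to -32.3 and within the range of the *Ifnar1*-/- libraries at 10.6 to 66.8. On the second, with 8.29% of the variance, it lay at 48.1, apart from both genotypes. There the other WT libraries lay at -0.0897 to 16.1 and the *Ifnar1*-/- libraries at -22.6 to 7.51. Its label was kept, and results are given with and without it. CPM carry no TMM factor, which was 0.923 for this library and 1.06 to 1.14 for WT vehicle libraries. On the scale of the tests it therefore lies higher against vehicle than in CPM. Each library held 2644185 to 3920003 oligodendrocyte UMIs, and the median oligodendrocyte nucleus held 2094 to 2864.5 UMIs, against 4821 to 6437 in all other nuclei. There were 54 barcode sequences shared by 2 libraries.

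Genes that the rule did not use gave the selected nuclei an oligodendrocyte profile. *Mbp*, encoding myelin basic protein, stood at 3767 CPM in the selected nuclei and 121 CPM in all other nuclei. *Mobp*, encoding another myelin protein, was detected in 90.5% of the selected nuclei and 5.59% of all other nuclei. *Cldn11* (407 and 7.72 CPM), which seals the myelin layers, *Mal* (486 and 8.34 CPM), *Ugt8a* (669 and 12.6 CPM), the enzyme that makes galactocerebroside, and *Aspa* (733 and 10.6 CPM), which hydrolyses N-acetylaspartate, had the same order. Most markers of other stages and types that were examined were low. *Vcan*, a precursor marker, stood at 6.70 CPM against 1045 CPM in precursor nuclei, *Neu4* at 0.602 against 126 CPM, and *Cx3cr1*, a microglial marker, at 10.3 against 863 CPM in microglia. *Enpp6*, a marker of newly formed oligodendrocytes, was an exception at 105 CPM, against 5.01 CPM in all other nuclei and 2.90 CPM in precursors, and was detected in 17.7% of the selected nuclei. The astrocyte marker *Slc1a3* was another exception, at 187 CPM against 256 CPM in all other nuclei and 2313 CPM in astrocytes. It was detected in nearly as large a share of the selected nuclei as of all other nuclei. *Aqp4*, also an astrocyte marker, stood at 9.13 CPM against 241 CPM in astrocytes. The rule excluded no astrocyte gene. Neuronal RNA was not at 0, since the synaptic gene *Syt1* stood at 766 CPM in oligodendrocytes and 3115 CPM in all other nuclei.

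Most of the nuclei lay inside the threshold of 4 genes. Exactly 4 of the 8 genes were detected in 1721 nuclei (9.11%), 5 in 3836, 6 in 6129, 7 in 5341 and all 8 in 1868. A further 932 nuclei with at least 4 of them were set aside because at least 1 of the 4 excluded genes was detected. Just outside the threshold, 751 nuclei held exactly 3. Those with exactly 3 had *Mbp* at 1649 CPM and *Syt1* at 2470 CPM, whereas those with exactly 4 had 2994 and 1299 CPM.

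The share of oligodendrocytes among the nuclei of a library did not differ between groups beyond the spread of the libraries. WT vehicle libraries held 16.3%, 16.6%, 16.7% and 11.4% (15.3% ± 2.56, SD, n = 4), and WT DMXAA libraries 17.2%, 18.9%, 13.01% and 21.0% (17.5% ± 3.38). *Ifnar1*-/- libraries held 15.0% ± 0.661 with vehicle and 16.7% ± 2.09 with DMXAA (SD, n = 4 each). The WT difference of 2.28 percentage points had p = 0.314 in a two-sided exact permutation test (adjusted over 3 comparisons p = 0.471), and the *Ifnar1*-/- difference of 1.70 points had exact permutation p = 0.2 (adjusted p = 0.471). The smallest p that 70 arrangements allow is 0.0286. Without WT DMXAA replicate 3 the WT difference was 3.79 points, where the exact permutation p was 0.0286 before adjustment, and without *Ifnar1*-/- DMXAA replicate 3 the *Ifnar1*-/- difference was 2.56 points at the same p. A share of nuclei also moves with the recovery of the other cell types.

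**Figure D1:**
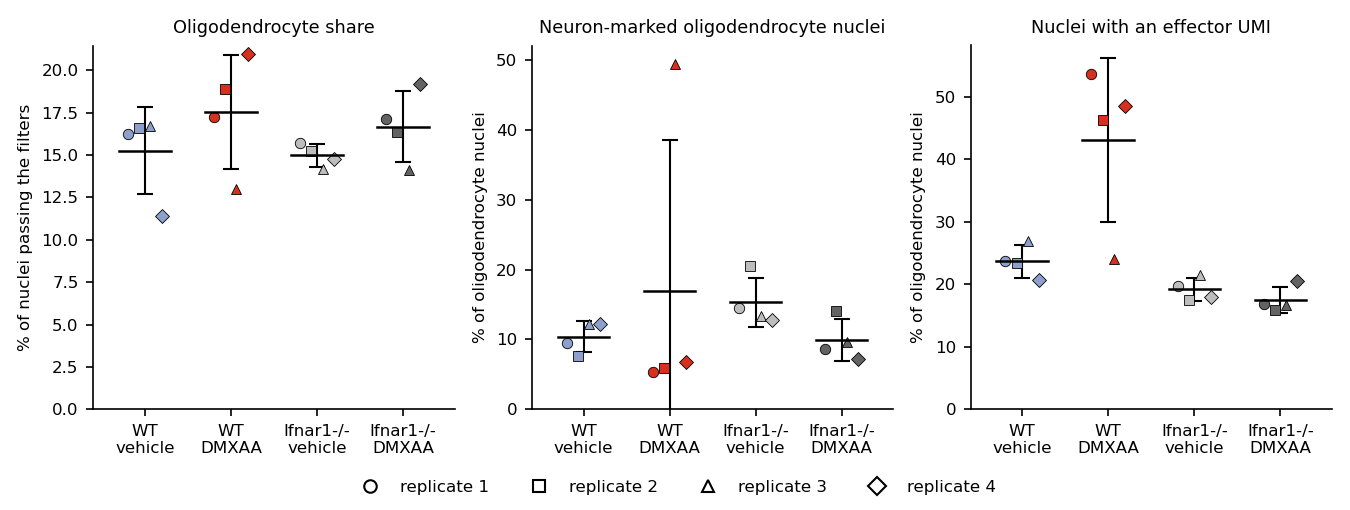
Oligodendrocyte nuclei as a percentage of nuclei passing the filters (left), oligodendrocyte nuclei holding at least 3 of 5 neuron markers (middle), and oligodendrocyte nuclei with at least 1 UMI of 48 interferon-stimulated effector genes (right), in percent, by library. Symbols mark replicates, lines the mean and bars the SD of 4 libraries, with bars cut at 0; WT DMXAA replicate 3 stands at 49.4% in the middle panel, and in the right panel at 24.04%, below the other WT DMXAA libraries.

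The receptor genes had similar levels in all groups. *Ifnar1* (chr16:91485238-91507441, plus strand, GRCm38/mm10) stood at 19.2, 21.2, 24.3 and 21.6 CPM in WT vehicle libraries and at 20.5, 16.1, 17.7 and 18.9 CPM in WT DMXAA libraries. It stood at 16.8, 15.4, 20.9 and 16.9 CPM in *Ifnar1*-/- vehicle libraries and at 17.4, 12.6, 14.2 and 15.8 CPM with DMXAA. The fitted difference between genotypes at vehicle in log2 units was -0.10 ± 0.13 (SE; adjusted p = 0.558 by edgeR). The labels do not name the altered part of the gene, and counts of transcript ends outside it do not check the deletion. *Ifnar2*, the other receptor subunit, ranged from 11.5 to 22.3 CPM over all libraries.

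Promoter sequences are shown for genes called higher in WT oligodendrocytes with DMXAA that hold the core letters of an interferon-stimulated response element. Of the fits with all libraries and without WT DMXAA replicate 3, *Ddx60* was called in both and the other genes shown only in the latter. *Ddx60*, *Irgm1*, *Bst2* and *H2-T23* entered these fits only through the WT DMXAA libraries, where they are high. The 300 bases from 250 before to 50 after each transcription start (RefSeq, GRCm38.p6) were searched for GAAANNGAAA or its reverse complement TTTCNNTTTC, which may overlap each other. *Ddx60*, one of the 2 genes called with all libraries, has matches 53 and 19 bases before its start, and the 250 bases before the start (chr8:61927837-61928086, plus strand) are given 5′ to 3′ with the matches in capitals.
Ddx60: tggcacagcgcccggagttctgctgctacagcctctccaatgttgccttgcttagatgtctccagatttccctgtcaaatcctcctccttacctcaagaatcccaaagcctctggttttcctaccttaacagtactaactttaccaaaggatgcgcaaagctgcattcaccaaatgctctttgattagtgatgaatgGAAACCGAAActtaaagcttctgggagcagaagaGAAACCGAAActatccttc
Shorter windows around the matches follow for *B2m* (chr2:122147538-122147567, plus strand), *Irgm1* (chr11:48871425-48871460, minus strand), *Bst2* (chr8:71537577-71537612, minus strand) and *H2-T23* (chr17:36032806-36032835, minus strand), an MHC class I pair, an interferon-induced GTPase and an antiviral membrane protein.
B2m: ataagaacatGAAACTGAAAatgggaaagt
Irgm1: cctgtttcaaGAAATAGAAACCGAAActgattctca
Bst2: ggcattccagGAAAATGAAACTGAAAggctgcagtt
H2-T23: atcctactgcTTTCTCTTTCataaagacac

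Of the genes called higher in WT oligodendrocytes without WT DMXAA replicate 3, 38 of 47 had a promoter in the RefSeq table, and 9 of these 38 (23.7%) held the response element letters. The share was 3.33% of 10119 tested genes with a promoter and 3.99% of all 27025 genes. The 9 were *Ddx60*, *B2m*, *Irgm1*, *Bst2*, *H2-T23*, *Eif2ak2*, *Ifitm3*, *Ctss* and 4930599N23Rik. None of 7 genes called lower with a promoter held them. The letters TTCNNNGAA, the core of the gamma-activated sequence, were found in 4 of the 38 (10.5%) and in 8.05% of tested genes. Without the WT DMXAA libraries 35 of the 47 reach the count limit. The others could enter only through the group where they are high. *Ddx60*, *Irgm1*, *Bst2*, *H2-T23* and *Ifitm3* are among these others. The share over the 35 was not taken, so the 23.7% is not read against the 3.33% as a result. These matches describe letters in a window and not bound sites.

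Signalling genes of the pathway were read first. *Irf9*, the DNA-binding part of the STAT complex, stood at 6.69, 10.0, 9.78 and 8.32 CPM with vehicle and at 57.7, 25.2, 16.1 and 23.5 CPM with DMXAA. The groups did not overlap, but with all libraries its log2 difference of 1.90 ± 0.33 (SE) had an edgeR adjusted p of 0.0577, and it was called without replicate 3 (2.08 ± 0.29). *Stat2*, which joins it in that complex, had 0.75 ± 0.24 and was not called in either fit. *Usp18*, which encodes an inhibitor of the receptor, had 8 counts in WT vehicle and 111 in WT DMXAA over all libraries, too few for the fit with all libraries. Without replicate 3 the fit gave 4.06 ± 0.68, but a gene this rare enters the fit only through the DMXAA libraries, where it is high.

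Sensors of viral RNA followed the same order of groups. *Ddx60* (chr8:61928087-62038244, plus strand) stood at 0.558, 1.14, 0 and 0.378 CPM with vehicle and at 22.3, 8.85, 9.98 and 7.65 CPM with DMXAA, from 7 and 176 counts. No library of the DMXAA group overlapped the vehicle group. The fit gave a log2 difference of 4.54 ± 0.64 (adjusted p = 0.0323 by edgeR), for a gene that entered it only through the WT DMXAA libraries. It had an adjusted p of 0.0583 in the edgeR fit without the nuclei holding at least 3 neuron markers, and of 0.419 in an edgeR fit of the WT libraries alone. Its call also ended when any 1 WT vehicle library was left out (edgeR adjusted p of 0.0768 to 0.214), or WT DMXAA replicate 1 (0.0559), *Ifnar1*-/- vehicle replicate 3 or 4 or *Ifnar1*-/- DMXAA replicate 2 (0.0574 to 0.0718). Its log2 fold change ranged from 4.09 to 5.26 over each of the 16 libraries left out in turn. *Eif2ak2*, which encodes the RNA-activated kinase PKR, stood at 3.35, 5.72, 3.07 and 1.89 CPM with vehicle and at 29.9, 9.66, 14.8 and 9.69 CPM with DMXAA. Its groups did not overlap either, with a log2 difference of 2.26 ± 0.38 (edgeR adjusted p = 0.0577), and it was called without replicate 3. *Oasl2*, of the oligoadenylate synthetase family, had 3 vehicle and 138 DMXAA counts (ratio 41.2, exact 95% interval 13.8 to 202, counting error only), of which replicate 1 gave most, and without it the ratio was 19.96 (interval 6.46 to 99.9). *Ddx58*, which encodes RIG-I, and *Zc3hav1*, a zinc finger antiviral protein, had log2 differences of 1.95 ± 0.51 and 1.88 ± 0.46 and were called in neither fit.

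Among the effectors, *Ifi27* (chr12:103434211-103440239, plus strand), which encodes a small interferon-induced membrane protein, showed how far replicate 3 bore on the result. It stood at 27.6, 35.5, 32.1 and 23.1 CPM with vehicle and at 153, 141, 29.2 and 145 CPM with DMXAA. Replicate 3 lay within the vehicle range, whereas the other 3 lay above all vehicle libraries. The log2 difference was 2.06 ± 0.33 (edgeR adjusted p = 0.0507) with all libraries and 2.36 ± 0.13 without replicate 3 (edgeR adjusted p = 7.61e-09). Effectors below the count limit of the fit were absent or rare with vehicle. *Isg15*, a ubiquitin-like modifier, had no counts with vehicle and 28 with DMXAA, at least 8.35-fold higher on a floor of 3 counts over the group. *Ifit1*, which binds viral RNA, had 2 and 73 counts (ratio 32.7, exact 95% interval 8.72 to 275), *Irgm2* 1 and 72 (ratio 64.4, interval 11.2 to 2579, or 28.8 without replicate 1), and *Ifi27l2a* 3 and 81 (ratio 24.2, interval 7.98 to 120). *Bst2*, which tethers virus particles, had 7 and 85 counts, and *Ifitm3*, which blocks viral entry, 5 and 80.

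Of 15 tested antigen presentation genes of the MHC class I list, none was called with all libraries. At an unadjusted p under 0.05, 4 were higher, against 3.03% of all genes. Of the 10 that reached the count limit without the WT DMXAA libraries, 2 were higher at that level. Without replicate 3, 4 of the 15 were called, against 0.351% of all genes called higher. *H2-D1* (chr17:35262730-35267499, plus strand), an MHC class I heavy chain, stood at 5.02, 10.6, 5.87 and 6.81 CPM with vehicle and at 28.7, 59.3, 6.65 and 36.5 CPM with DMXAA. *H2-K1* stood at 6.97, 10.0, 9.78 and 8.70 CPM with vehicle and at 38.3, 29.8, 9.47 and 18.6 CPM with DMXAA. For both genes replicate 3 lay within the vehicle range in CPM and the other 3 above it. On the TMM scale of the tests replicate 3 lies higher against vehicle, and its place there was not taken. *H2-D1* had a log2 difference of 2.30 ± 0.46 (edgeR adjusted p = 0.167), and of 2.62 ± 0.30 without replicate 3 (edgeR adjusted p = 0.000351). *B2m*, which encodes the class I light chain, and *Nlrc5*, the transactivator of class I genes, were likewise called only without replicate 3 among these 2 fits, at 1.68 ± 0.27 and 3.42 ± 0.56. *Nlrc5*, with 14 vehicle counts, entered the fit only through the DMXAA libraries. It stood at 23.5 CPM in WT DMXAA replicate 1 and at 3.07 to 5.36 CPM in the others, and without replicate 1 its log2 difference was 2.15 (edgeR adjusted p = 0.118).

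**Figure D2:**
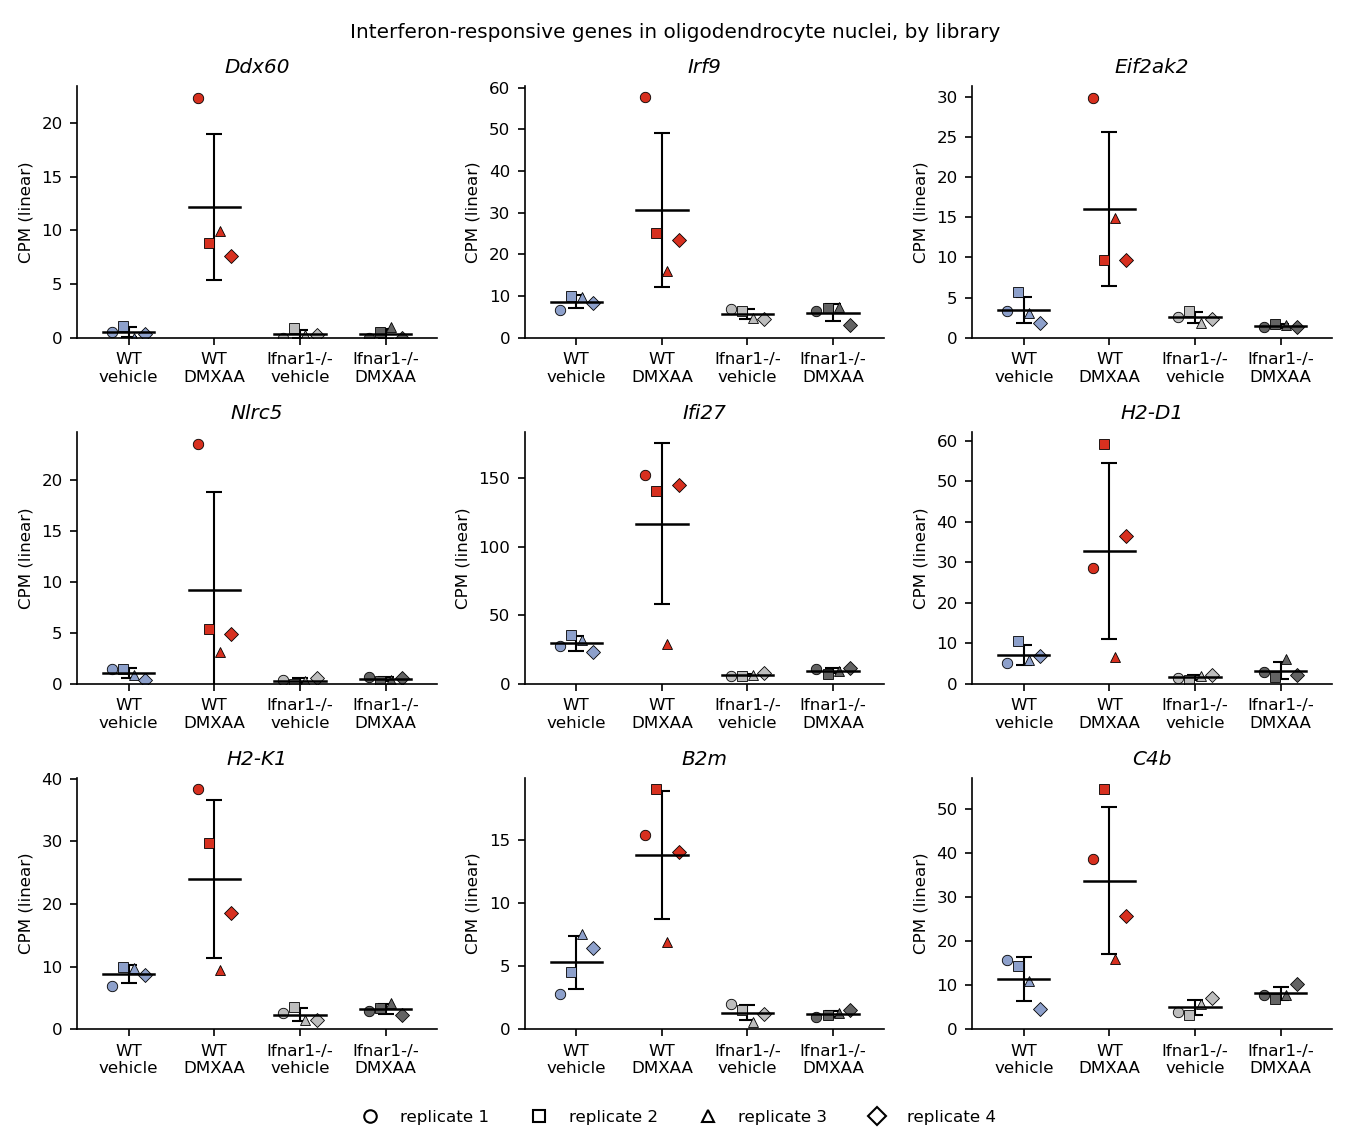
CPM of oligodendrocyte UMIs on linear axes for 9 genes in 4 groups of 4 libraries; symbols mark replicates, lines the mean and bars the SD, cut at 0. All 4 WT DMXAA libraries lie above WT vehicle for *Ddx60*, *Irf9*, *Eif2ak2*, *Nlrc5* and *C4b*, whereas WT DMXAA replicate 3 (triangle) lies among the vehicle libraries for *Ifi27*, *H2-D1*, *H2-K1* and *B2m*. The CPM carry no TMM scaling.

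Of 161 listed interferon genes in the files (signalling, sensors, effectors, TRIM and PARP family and nuclear factors, and MHC class I presentation), 56 had enough counts to be tested in all libraries. Of these, 2 were called, 24 were higher at an unadjusted p under 0.05 against 3.03% of all genes tested, and none was lower at that level. In 11 of the 56, all 4 WT DMXAA libraries lay above all vehicle libraries, against 0.402% of all genes tested, and in 5 of the 43 that reach the count limit without the WT DMXAA libraries. Their median log2 difference was 0.53, against 0.03 over all genes. Since a gene can reach the count limit only through the DMXAA libraries, the 43 that reached it without them are given apart: their median was 0.31, and 15 were higher at an unadjusted p under 0.05. By role, the medians over those that reached it without the WT DMXAA libraries were 0.10 for signalling (13 genes), 0.38 for sensors (3 genes), 0.41 for effectors (6 genes), 0.33 for TRIM, PARP and nuclear factors (11 genes) and 0.53 for MHC class I presentation (10 genes). Over all tested they were 0.10 (13 of 26 listed), 1.88 (7 of 27), 0.63 (7 of 48), 0.54 (14 of 36) and 0.55 (15 of 24). Summed signalling RNA was 914 CPM in WT DMXAA replicate 1, and 585, 570 and 619 CPM in the others, against 566 to 600 CPM with vehicle. Of the 105 not tested, 83 had over 3 counts in the WT vehicle and DMXAA libraries together. A mean CPM higher in WT DMXAA than in WT vehicle was found in 80 of these. A gene could be among the 83 only through the DMXAA libraries, and the share over all untested genes was not taken. The 80 are therefore not read as a response.

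Without WT DMXAA replicate 3, 47 of 13390 genes were called higher (0.351%) and 15 lower (0.112%). Of the 47, 19 were in the interferon lists and none of the 15. Without the WT DMXAA libraries 35 of the 47 and 8 of the 19 reach the count limit, so the others could enter only through the group where they are high. Neuron markers moved with the genes called lower: in this fit their median was -0.35, with 5 of 14 lower at an unadjusted p under 0.05, and their summed RNA was 4627 to 5117 CPM in the 3 DMXAA libraries against 6323 to 6983 CPM with vehicle. Their part in those calls was not tested. In 18 of the 47, and in 13 of the 19, the omitted library also lay above all vehicle libraries. The share of all genes for which it lay there was not taken, and it stood far from the other WT libraries on the first principal component. These counts therefore do not show whether it shared the response. With all libraries but without nuclei holding at least 3 neuron markers, no gene was called by edgeR, with 658 of 12052 at an unadjusted p under 0.05, whereas with all nuclei DESeq2 called 25. Without both those nuclei and replicate 3, an alternative chosen after seeing the data, 259 genes were called, 111 higher and 148 lower.

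**Figure D3:**
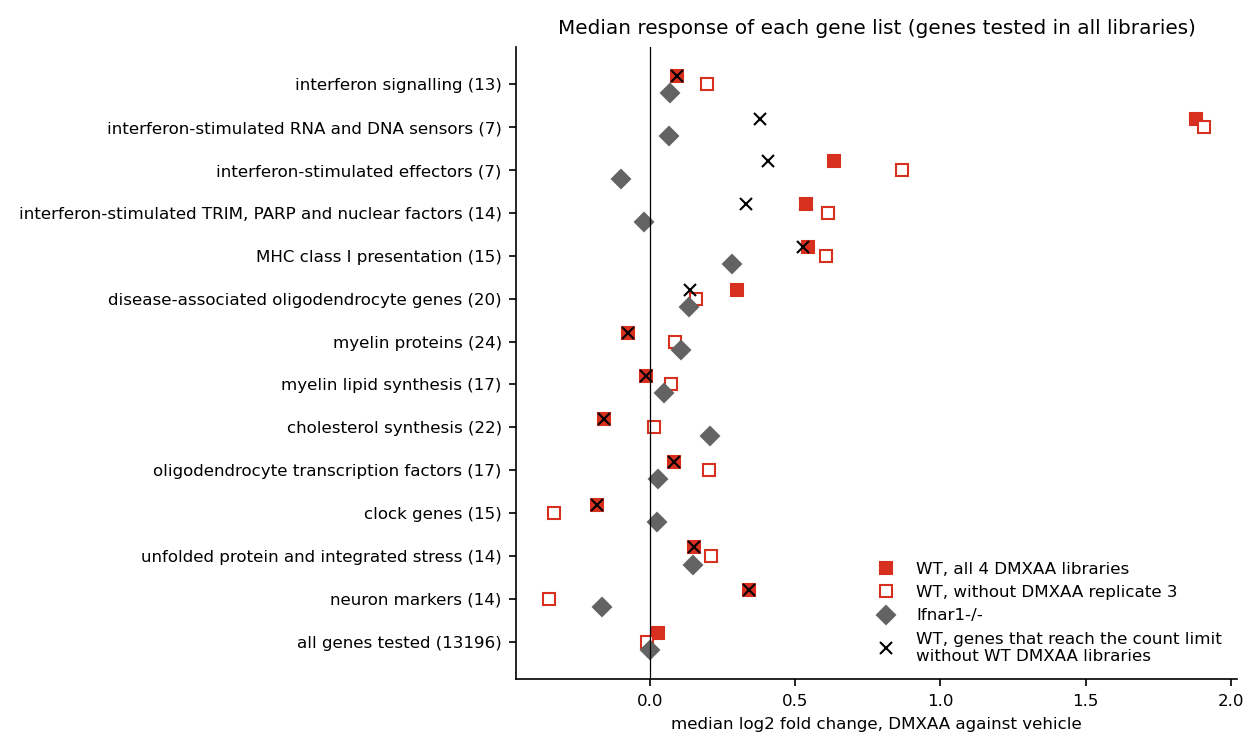
Median log2 fold change of the genes of each list in oligodendrocytes, DMXAA against vehicle, for WT with all libraries (filled squares), WT without DMXAA replicate 3 (open squares) and *Ifnar1*-/- (diamonds), over the genes tested in all libraries, whose number stands in brackets; crosses give WT over the genes that reach the count limit without WT DMXAA libraries. Sensors lie at 1.88 in WT over 7 genes and at 0.38 over the 3 marked by the cross, and myelin proteins at -0.07 over 24 genes.

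Few oligodendrocytes carried the effector RNA in any depth. At least 1 UMI of the 48 effector genes was found in 23.7%, 23.3%, 26.9% and 20.6% of oligodendrocyte nuclei in WT vehicle libraries and in 53.6%, 46.2%, 24.04% and 48.5% in WT DMXAA libraries. Replicate 3 lay within the vehicle range, and the other 3 lay above it. At least 3 of the 48 effector genes were detected in 0.226% to 0.309% of nuclei with vehicle. With DMXAA the shares were 5.40%, 2.28%, 0.899% and 2.45%, so that here all 4 lay above vehicle. After thinning to 1000 UMIs per nucleus, at least 2 of these genes were detected in 0.379% to 0.983% of nuclei with vehicle. The DMXAA libraries then had 5.63%, 2.50%, 0.751% and 3.02%, with replicate 3 within the vehicle range. In *Ifnar1*-/- oligodendrocytes at least 1 UMI was found in 17.5% to 21.5% of nuclei with vehicle and in 15.9% to 20.5% with DMXAA, at a median depth of 2250 to 2864.5 UMIs against 2094 to 2431 in WT. With each nucleus thinned to 1000 UMIs, the WT shares were 9.39% to 12.4% and 9.99% to 31.3%, and the *Ifnar1*-/- shares 5.59% to 8.79%.

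Microglia of the same WT DMXAA libraries had a summed effector RNA of 2199 ± 1125 CPM (SD, n = 4), so RNA of microglia in the oligodendrocyte nuclei was measured beside these values. The summed CPM of 12 microglia markers in oligodendrocyte nuclei ranged from 126 to 179 over all 16 libraries, with 126 to 174 in WT DMXAA and 151 to 179 in WT vehicle. In WT DMXAA, these markers stood in oligodendrocytes at 0.216% to 2.58% of their microglial CPM, and of 145 interferon genes with enough microglial counts, 51 stood at or below the highest of them, *Trim30a* (0.736%) and *Sp100* (0.467%) included. The list medians were 2.83% for sensors, 3.38% for TRIM, PARP and nuclear factors, 6.92% for effectors, 7.63% for signalling and 8.93% for MHC class I presentation. All 19 interferon genes called without replicate 3 stood above the markers, but they were chosen for high levels in these same nuclei. *Ifi27* stood at 283% of its microglial CPM. The summed effector RNA of oligodendrocytes was 107, 115, 128 and 94.2 CPM in WT vehicle and 397, 298, 114 and 292 CPM in WT DMXAA.

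In *Ifnar1*-/- oligodendrocytes, DMXAA gave no called gene among 13196 (0%), where 533 had an unadjusted p under 0.05 and DESeq2 called 1, *Cfap299*. Of the 56 interferon genes, 1 was higher and 1 lower at an unadjusted p under 0.05, against 2.64% of all genes higher, and their median log2 difference was 0.07. In 2 of the 56 all 4 DMXAA libraries lay higher, against 3.33% of all genes. By role, the medians were 0.07 for signalling, 0.07 for sensors, -0.10 for effectors and -0.02 for TRIM, PARP and nuclear factors. MHC class I presentation had 0.28, with 12 of 15 genes positive and none at an unadjusted p under 0.05. Over all genes, 6636 of 13196 were positive. *Ifi27* had 0.57 ± 0.42 (SE), *H2-D1* 0.99 ± 0.72, *C4b* 0.68 ± 0.42, *H2-K1* 0.43 ± 0.47 and *B2m* -0.09 ± 0.51. *Ddx60* stayed at 0 to 0.968 CPM in all 8 *Ifnar1*-/- libraries.

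The test of the difference between the 2 DMXAA effects, the interaction, called no gene in edgeR (0%), with 682 at an unadjusted p under 0.05, and 7 in DESeq2, among them *Eif2ak2*. Of the 56 interferon genes, 11 had a more positive WT effect at an unadjusted p under 0.05, against 2.74% of all genes, and none a more negative one. Of the 43 that reached the count limit without the WT DMXAA libraries, 7 had a more positive WT effect at that level and none a more negative one. Without WT DMXAA replicate 3, *Ifi27* was called in the interaction at 1.80.

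The WT response was compared with that of precursors, microglia and astrocytes of the same libraries in models with the library as a block. Against microglia, 26 of 13795 genes differed (0.188%). *Rnf213*, a large ubiquitin ligase induced by interferon, had 0.66 in oligodendrocytes and 2.39 in microglia, a difference of -1.71 ± 0.23 (SE, edgeR adjusted p = 0.00113). *Ifit2*, an RNA-binding effector, had 0.01 and 4.96 (difference -4.85 ± 0.70). *Stat2* (-1.46), *Rtp4* (-2.54) and *Xaf1* (-2.03) also responded less in oligodendrocytes. *Ifi27* went the other way, at 2.06 in oligodendrocytes and 0.45 in microglia (difference 1.62 ± 0.24, edgeR adjusted p = 0.00215). *Ddx60* also had the larger fold change in oligodendrocytes (4.54 against 1.81, difference 2.69 ± 0.54), but from a mean vehicle level of 0.520 CPM against 59.7 CPM in microglia. This difference was not called in 6 of 20 alternatives, among them the one without WT DMXAA replicate 1 (2.57, edgeR adjusted p = 0.09).

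Against astrocytes, 2 of 14711 genes differed (0.0136%), *Xaf1* (difference -2.87) and *Stat2* (-1.14). *Xaf1*, which encodes a binding partner of an apoptosis inhibitor, had 0.63 ± 0.28 in oligodendrocytes and 3.51 ± 0.38 in astrocytes. Against oligodendrocyte precursors, of which there were 2940 nuclei, 1 of 13330 genes differed (0.0075%). It was *Rnf213*, with 0.66 in mature cells and 2.32 in precursors (difference -1.65 ± 0.26, edgeR adjusted p = 0.0265). Without WT vehicle replicate 1, 2 or 4 this difference was not called, at -1.38, -1.73 and -1.74. It was also not called with at least 5 of the 8 marker genes. *Rnf213* differed from microglia and from precursors in the same direction, in comparisons that share the oligodendrocyte sums.

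**Figure D4:**
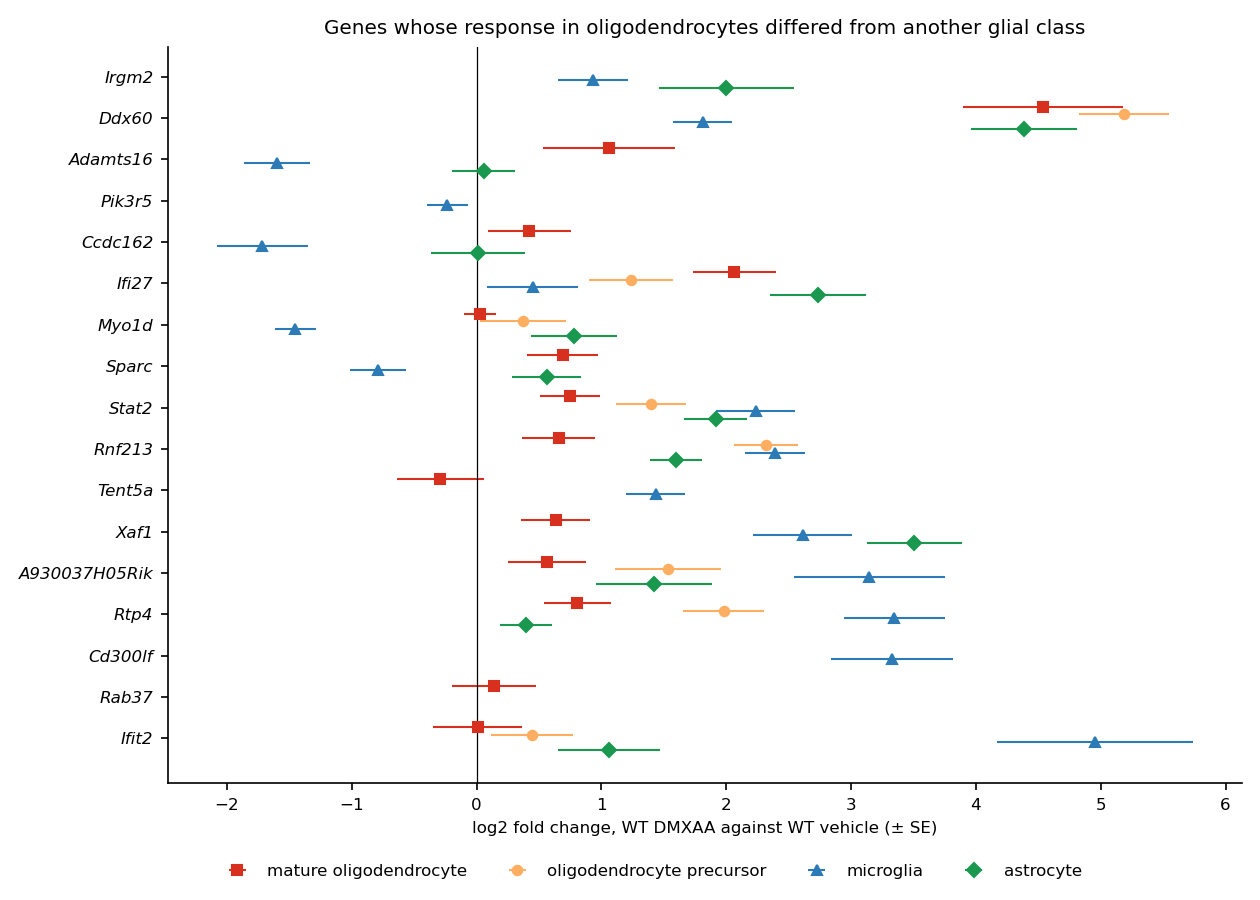
Log2 fold change with SE, WT DMXAA against WT vehicle, in 4 glial classes for genes whose response differed between oligodendrocytes and another class; a class without a symbol had too few counts in its own fit. *Rnf213* lies at 0.66 in oligodendrocytes and at 2.39 in microglia, and *Ifi27* at 2.06 and 0.45.

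A list of genes described in disease-associated oligodendrocytes had 20 tested members of 30. None was called with all libraries, and 5 were higher and none lower at an unadjusted p under 0.05 (median 0.30, against 0.03 over all genes, with 3.03% of all genes higher). Over the 17 that reached the count limit without the WT DMXAA libraries, 4 were higher and the median was 0.14. *C4b*, which encodes complement component 4, stood at 15.6, 14.3, 10.9 and 4.54 CPM in WT vehicle and at 38.6, 54.5, 15.9 and 25.8 CPM in WT DMXAA libraries. All 4 DMXAA libraries lay above vehicle, replicate 3 by less than 1 CPM. Its log2 difference was 1.64 ± 0.35 (edgeR adjusted p = 0.191), and without replicate 3 it was called at 1.84 ± 0.29 (edgeR adjusted p = 0.00459). The members called without replicate 3 were *C4b*, *H2-D1*, *H2-K1* and *B2m*, of which all but *C4b* are also in the MHC class I list. *Serpina3n*, a protease inhibitor often named with them, had 20 counts in WT vehicle and 45 in WT DMXAA.

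Of 24 myelin protein genes tested in WT, none was called with or without replicate 3, which is read against 0.0152% of all genes called with all libraries. At an unadjusted p under 0.05, 1 was higher (*Mobp*, 0.41 ± 0.14), against 3.03% of all genes, and 3 were lower (among them *Pllp* and *Gpr37*), against 1.96%. The median was -0.07, or 0.09 without replicate 3. In *Ifnar1*-/- oligodendrocytes 20 of the 24 had a positive log2 difference (median 0.11), and none passed an unadjusted p of 0.05. Myelin lipid synthesis (17 genes, median -0.01) and transcription factors of the lineage (17 genes, median 0.08) had none called. Cholesterol synthesis (22 genes) had a median of -0.16 in WT and 0.21 in *Ifnar1*-/-, with none called in either. Its WT median was 0.01 without replicate 3. In that library, the summed myelin protein RNA was 8484 CPM, against 13186 to 16556 CPM in the other WT libraries.

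Some genes of mature oligodendrocyte subtypes and transport were called in WT without replicate 3. *Apod*, which encodes a lipid carrier, stood at 602, 808, 613 and 648 CPM with vehicle and at 1468, 2043, 304 and 903 CPM with DMXAA. Replicate 3 lay below all vehicle libraries and the other 3 above. Its difference was 0.91 ± 0.34 with all libraries (edgeR adjusted p = 0.892) and 1.21 ± 0.19 without replicate 3 (edgeR adjusted p = 0.00459). *Ptgds*, which encodes prostaglandin D2 synthase, had the same order, from 1387 to 2352 CPM with vehicle and at 4894, 3474, 323 and 2384 CPM with DMXAA, and was called without replicate 3 at 1.03 ± 0.22. Markers of vascular and meningeal cells moved with these genes, at a summed 227, 432, 58.9 and 333 CPM in the 4 WT DMXAA libraries against 26.5 to 270 CPM with vehicle, and so did nuclear-retained RNA, at 153227, 151547, 50022 and 125238 CPM. Their part in the values of *Apod* and *Ptgds* was not tested. *Anln*, which encodes a scaffold of septins in myelin, was called at 0.68 ± 0.12 without replicate 3. *Daam2*, a formin of the Wnt pathway, ranged from 518 to 579 CPM with vehicle and from 641 to 758 CPM with DMXAA in all 4 libraries, and was called only without replicate 3 of these fits, at 0.46 ± 0.09 (edgeR adjusted p = 0.0258).

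Clock genes and stress genes were read as further lists. Of 15 clock genes, 5 were lower and none higher at an unadjusted p under 0.05 in WT, with none called, against 1.96% of all genes lower at that level. Without replicate 3, 8 were lower, against 6.34% of all genes, and the median was -0.33. With all libraries the 5 were *Nr1d1* (-0.999 ± 0.32), *Ciart* (-0.92 ± 0.30), *Dbp* (-0.83 ± 0.28), *Per3* (-0.43 ± 0.15) and *Nr1d2* (-0.30 ± 0.14), which are all repressors or outputs of the circadian clock. Their list had a median of -0.18 in WT and 0.02 in *Ifnar1*-/-. Genes of the unfolded protein response (14 tested, median 0.15), NF-kB targets (8 tested, median 0.03) and cell death genes (10 tested, median -0.01) had none called with all libraries, and without replicate 3 the chaperone gene *Hspa5* was called.

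At vehicle, *Ifnar1*-/- and WT oligodendrocytes differed widely, in a comparison where genotype, age and cohort cannot be told apart. Of 13196 genes, 2194 were called higher (16.6%) and 2380 lower (18%) in *Ifnar1*-/- mice. *Malat1*, a nuclear-retained RNA, stood at 86453 to 122210 CPM in WT and at 18185 to 32353 CPM in *Ifnar1*-/- libraries (log2 difference -1.74 ± 0.29, edgeR adjusted p = 0.0013). Neuron marker RNA in the oligodendrocyte nuclei moved with the genotype, with 5 of 14 neuron markers called higher and 1 lower (median 0.83). Its part in the differences was not tested. Sums of counts cannot tell fewer cells of a kind from less RNA in each cell.

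Interferon-related and antigen presentation genes were called lower in *Ifnar1*-/- oligodendrocytes at vehicle at a share near that of all genes, 9 of 56, with 3 called higher, against 18% and 16.6%. *Ifi27* stood at 5.93, 5.75, 5.98 and 7.43 CPM, below all WT vehicle libraries (log2 difference -2.04 ± 0.39, edgeR adjusted p = 0.00234). *H2-D1* (-1.99 ± 0.65), *B2m* (-1.79 ± 0.41) and *H2-K1* (-1.73 ± 0.42) were also called lower. Of 15 tested MHC class I genes, 5 were called lower and none higher, against 18% and 16.6% of all genes. *Irf3*, the factor activated through STING, was lower (-1.44 ± 0.34) and *Irf2*, a repressor of interferon genes, was higher (0.76 ± 0.13).

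Genes of the lineage went in both directions between the genotypes. Of 24 myelin protein genes, 10 were called lower and 4 higher, against 18% and 16.6% of all genes. *Cnp*, a myelin enzyme, stood at 195, 186, 274 and 306 CPM in WT vehicle and at 108, 86.0, 104 and 96.8 CPM in *Ifnar1*-/- vehicle libraries, with no overlap (-1.08 ± 0.24, edgeR adjusted p = 0.0049). *Cryab* (-1.40), *Cmtm5* (-1.30) and *Hapln2* (-1.14) were also lower, whereas *Myo1d* (0.69) and *Bcas1* (0.47) were higher and *Mbp* did not pass (0.19 ± 0.12). Of 17 tested lineage transcription factors, 6 were called higher and 3 lower, against 16.6% and 18% of all genes, with a median of 0.19. *Olig1* (-1.12 ± 0.23), *Olig2* (-0.76 ± 0.25) and *Sox10* (-0.90 ± 0.32) were lower and *Zfp536* (0.80 ± 0.13) higher. *Olig1* and *Olig2* lie within 5 Mb of *Ifnar1* on chromosome 16, and the part of that region in their values was not tested. *Fdps* of cholesterol synthesis was lower (-1.42 ± 0.23), with 6 of 22 genes of that list called lower and 1 higher, against the same 18% and 16.6%.

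To find where oligodendrocytes differed from the rest, the genotype effect at vehicle was compared with that in all other nuclei of the same libraries. Of 19178 genes, 108 differed (0.563%), 11 with a more positive and 97 with a more negative effect in oligodendrocytes. *Grik1* (chr16:87895900-88290265, minus strand), which encodes a kainate receptor subunit, stood at 186, 152, 220 and 115 CPM in WT and at 793, 700, 680 and 653 CPM in *Ifnar1*-/- vehicle libraries. Its log2 difference was 2.27 ± 0.19 in oligodendrocytes and 0.44 ± 0.16 in other nuclei, so the effects differed by 1.78 ± 0.19 (edgeR adjusted p = 5.77e-05). *Eva1c* (2.07 ± 0.31 against 0.65 ± 0.12), which encodes a slit receptor, also lies on chromosome 16 near *Ifnar1*, and its difference was not called when WT vehicle replicate 3 or 4 or *Ifnar1*-/- vehicle replicate 1, 3 or 4 was left out (1.07 to 1.43). *Ccl27a*, a chemokine gene, went the other way, from 4.46, 4.58, 9.22 and 6.81 CPM in WT to 0.659, 0.606, 0.299 and 0 CPM in *Ifnar1*-/- libraries, at -3.71 ± 0.47 against -1.36 ± 0.21 in other nuclei. *Scd1*, a fatty acid desaturase, was lower in oligodendrocytes (-0.96 ± 0.26) and not in other nuclei (0.37 ± 0.23), and the difference of -1.42 ± 0.24 passed, but not without *Ifnar1*-/- vehicle replicate 2 (edgeR adjusted p = 0.0517).

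**Figure D5:**
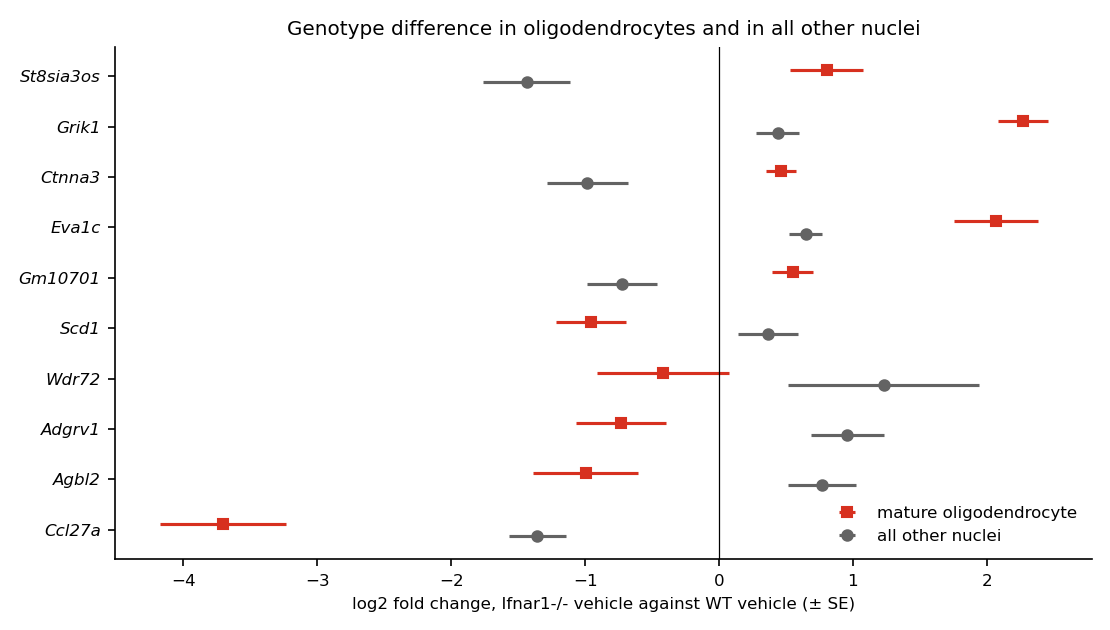
Log2 fold change with SE, *Ifnar1*-/- vehicle against WT vehicle, in oligodendrocytes (squares) and in all other nuclei (circles), for the 5 genes with the most positive and the 5 with the most negative difference between them. *Grik1* lies at 2.27 and 0.44, and *Ccl27a* at -3.71 and -1.36.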

How the data were processed

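The matrices that the authors deposited give raw UMI counts of 32285 genes in each barcode of Chromium 3′ libraries, and these were not scaled. Per the labels the authors used Cell Ranger 3.1.0 and Seurat 3.0 with mm10, whereas the file headers name Cell Ranger 6.1.2, and the study's methods state that reads on pre-mRNA were counted. Such counts include intronic reads.

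UMIs of the selected nuclei were summed per library. edgeR 4.0.16 (R 4.3.3) modelled the 4 groups over all 16 libraries without covariates, after TMM scaling and filterByExpr, and genes were tested by quasi-likelihood. Calls needed a Benjamini-Hochberg adjusted p below 0.05 together with a log2 difference beyond 0.1 either way. The fit was tested on simulated counts. Classes were compared in the same way with the library as a block where a library held at least 20 nuclei of a class. The class comparison between genotypes was added after seeing the data. Exact permutation tests of shares (two-sided) used SciPy 1.17.1. DESeq2 1.42.0, limma 3.58.1, other scaling, filters, marker thresholds and each library left out were tried as alternatives. The study removed doublets with DoubletFinder; here no doublet caller was run, and nuclei with any of the 4 excluded genes were set aside.

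The rule for the nuclei, the gene lists and the tests were chosen with earlier results of these data known. Named genes were, first, the called genes of each oligodendrocyte contrast, at most 10 in each direction with the largest fold change and with groups that did not overlap, and, where fewer than 5 were called, the 5 with the smallest p in each direction. From each list they were the called members, up to 4 with the highest mean CPM and up to 4 with the smallest p in WT. They were also a fixed set of receptor, myelin and interferon genes and, between classes, at most 8 called genes in each direction. Other members of the lists, the promoters shown and the genes near *Ifnar1* were chosen after their values were seen. The same holds for genes called without WT DMXAA replicate 3. The labels number no animals, so p-values measure the spread between libraries. Intervals and floors of 3 counts cover counting error only. Gene positions are those of GENCODE M21 (GRCm38/mm10). Some genes that were measured and counted in the totals are not reported here.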

Additional observations from a re-analysis of the deposited data

Results flagged for a closer look

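Within groups of 4 libraries, 112 were examined for a library far from the other 3, and chance alone gives about 1 such group in 20. WT DMXAA replicate 3 lay far from its group in neuron-marked nuclei (49.4%, others 5.40% to 6.81%), in the first principal component (55.75), in summed neuron marker RNA (1.884e+04 CPM), in summed MHC class I RNA (194.3 CPM, others 388 to 406) and in *Ifi27* (29.2 CPM). WT DMXAA replicate 1 lay far above the other 3 in summed interferon signalling RNA (913.7 CPM, others 570.5 to 619), in TRIM, PARP and nuclear factors (490.2 CPM), and in *Ddx60* (22.3 CPM), *Nlrc5* (23.5 CPM) and *Oasl2* (26.0 CPM). Its share of neuron-marked nuclei was 5.40%, the lowest of all libraries. What sets these libraries apart was not tested.

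The other libraries far from their group were WT vehicle replicate 4 in oligodendrocyte share (11.4%, others 16.3% to 16.7%), *Ifnar1*-/- vehicle replicate 1 in TRIM, PARP and nuclear factors (332.9 CPM), *Ifnar1*-/- vehicle replicate 4 in *Ifi27* (7.43 CPM) and *Ifnar1*-/- DMXAA replicate 2 in the first principal component (41.4).

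The WT response to DMXAA differed by class for the following genes, as oligodendrocyte minus other class on the log2 scale (edgeR, all past the threshold). Against microglia it was lower for *Ifit2* (-4.85), *Rab37* (-4.29), *Cd300lf* (-3.64), *Rtp4* (-2.54), A930037H05Rik (-2.38), *Xaf1* (-2.03), *Tent5a* (-1.72) and *Rnf213* (-1.71). It was higher for *Irgm2* (4.29), *Ddx60* (2.69), *Adamts16* (2.64), *Pik3r5* (2.19), *Ccdc162* (2.14), *Ifi27* (1.62), *Myo1d* (1.48) and *Sparc* (1.47). Over 20 alternatives, the calls of *Irgm2*, *Ddx60*, *Adamts16*, *Pik3r5* and *Ccdc162* were lost in 5 to 7, each of them without neuron-marked nuclei and without WT vehicle replicate 1 or 3, that of *Rab37* in 8 and that of *Tent5a* in 4. *Irgm2* had 1 vehicle count in oligodendrocytes. Against precursors it was lower for *Rnf213* (-1.65), and against astrocytes for *Xaf1* (-2.87) and *Stat2* (-1.14). In microglial nuclei, the myelin gene *Myo1d* had a log2 fold change of -1.45 and in oligodendrocytes of 0.03.

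The genotype difference at vehicle was larger or of other sign in oligodendrocytes than in all other nuclei for *St8sia3os* (2.19), *Grik1* (1.78), *Ctnna3* (1.40), *Eva1c* (1.37) and *Gm10701* (1.21), and more negative for *Ccl27a* (-2.51), *Agbl2* (-1.83), *Adgrv1* (-1.74), *Wdr72* (-1.72) and *Scd1* (-1.42). With each vehicle library left out in turn, 65 calls of these genes were kept and 15 were lost, those of *Eva1c* and *Scd1* given above among them.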

How the results depend on the processing

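The number of genes called in WT moved with most choices. Against 2 in the report, there were 25 with DESeq2, 17 with no filter on low counts, 8 and 5 with at least 3 or 5 marker genes, 0 without neuron-marked nuclei, 0 in a fit of the WT libraries alone, and 259 without neuron-marked nuclei and WT DMXAA replicate 3, an alternative chosen after seeing the data. Leaving out each library gave 0 to 62: 62 without WT DMXAA replicate 3, 4 without replicate 2, 3 without replicate 4, 0 without any WT vehicle library, *Ifnar1*-/- vehicle replicate 3 or 4 or *Ifnar1*-/- DMXAA replicate 2, and 1 without any other. In *Ifnar1*-/- mice DESeq2 called 1 gene and each library left out gave 0. The interaction had 7 genes with DESeq2, 1 without neuron-marked nuclei and replicate 3, and 0 to 1 with a library left out (1 without WT DMXAA replicate 1 or 3). Genes that differed between genotypes at vehicle numbered 3761 to 6037 over the alternatives and 2674 (without *Ifnar1*-/- vehicle replicate 2) to 6397 (without WT DMXAA replicate 3) with a library left out, against 4574. Between classes, no filter gave 26 genes for precursors, 105 for microglia and 54 for astrocytes, at least 5 markers gave 0 for precursors, and removal of neuron-marked nuclei gave 17 for microglia. With a library left out, genes that differed from precursors numbered 0 (without WT vehicle replicate 1, 2 or 4) to 3 (without WT DMXAA replicate 4), with 2 without WT DMXAA replicate 3 or *Ifnar1*-/- vehicle replicate 1. Those that differed from microglia numbered 12 and 15 without WT vehicle replicate 3 and 1, and 51 and 48 without WT DMXAA replicate 3 and 4. Those that differed from astrocytes numbered 2 to 6, with 6 without WT DMXAA replicate 3. Genes with a genotype effect unlike that of other nuclei numbered 19, 30 and 44 without *Ifnar1*-/- vehicle replicate 2, 1 and 4, and 185 and 316 without WT vehicle replicate 3 and 2, against 108. The causes were not tested.

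The oligodendrocyte share differed between genotypes at vehicle by -0.28 percentage points, which was 0.0072 with at least 3 markers, and -1.56 to 0.21 with a library left out (0.053, 0.17 and 0.21 without WT vehicle replicate 1, 2 and 3). For DMXAA against vehicle, the range with a library left out was 1.005 to 3.79 points for WT and 0.874 to 2.56 for *Ifnar1*-/- mice. Thinned to 1000 UMIs per nucleus, the differences were 1.14 points for WT, 1.88 for *Ifnar1*-/- mice and -1.54 between genotypes at vehicle. At least 5 markers gave 1.41, 1.67 and -0.65 points. No gene recomputed under these alternatives changed direction, but the WT medians of the interferon lists moved, with a library left out, from 0.30 to 2.06 for effectors, 1.36 to 2.16 for sensors, 0.06 to 0.30 for signalling, 0.37 to 0.65 for TRIM, PARP and nuclear factors and 0.25 to 0.66 for MHC class I presentation. These medians were taken over the genes tested in each setting, so the genes differ between settings. Without WT DMXAA replicate 3, 12 effectors were tested against 7 with all libraries, and over those 7 the median was 0.87. Over the other settings the effector median reached 2.01 and the signalling median ran from 0.0027 to 0.50. Both highest values came with no filter on low counts, over 44 effectors and 26 signalling genes. No paired analysis was possible because the labels give the groups no shared animal, litter or batch, and replicates were numbered in accession order. Depth limits the genes of low RNA: 105 of 161 interferon genes could not be tested.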

Other observations

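Within 5 Mb of *Ifnar1* on chromosome 16, 34 of 70 tested genes were called between the genotypes at vehicle in oligodendrocytes (48.6%). On the rest of the chromosome 132 of 371 were called (35.6%), and of all genes placed outside these 5 Mb, that chromosome included, 4540 of 13121 (34.6%). Of the 70, 18 were called with over a 2-fold difference (25.7%), against 12.7% and 13.5%. They include *Grik1*, *Tiam1* (47.9 and 127 CPM in WT and *Ifnar1*-/- vehicle), *Eva1c*, *Kcnj6* (71.6 and 155 CPM) and *Olig1* (95.2 and 38.1 CPM). Whether the shares differ was not tested.

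Genes with the smallest p for DMXAA in *Ifnar1*-/- oligodendrocytes, none of them called by edgeR, included *Cfap299*, which had 7.24, 17.0, 13.1 and 12.5 CPM with vehicle and 3.55, 2.00, 2.26 and 3.88 CPM with DMXAA. The groups did not overlap (log2 difference -2.11 ± 0.38, edgeR adjusted p = 0.582). *Ccl27a* had 0 to 0.659 CPM with vehicle and 1.43 to 2.26 CPM with DMXAA, whereas in WT vehicle libraries it stood at 4.46 to 9.22 CPM.

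The genes called lower in WT oligodendrocytes without WT DMXAA replicate 3, of which there were 15, included *Mthfd1l*, a mitochondrial folate enzyme (-0.999), *Csmd2* (-1.02), *Tnik*, a kinase of the Wnt pathway (-0.65), and *Npas3*, a transcription factor (-0.62). In that fit neuron markers had a median of -0.35 and precursor markers of -0.37, and the part of such RNA in these calls was not tested.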
